A study of Arabidopsis thaliana with 18 samples.

Results

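Tyrphostin AG879 was compared with its solvent in Arabidopsis thaliana seedlings collected 2 h after lights on. The comparison rests on 6 of the 18 RNA-seq libraries of the series, 3 labelled TYR (2 µM) and 3 labelled DMSO (0.1%), chosen by their titles and their treatment and time labels. All were whole Col-0 seedlings aged 14 days, raised in 12 h of light and 12 h of darkness on Murashige and Skoog medium and collected at zeitgeber time (ZT) 2, where ZT counts hours from lights on. TYR was matched by its letters to Tyrphostin AG879, the only chemical in the treatment protocol that it could abbreviate. The other ZT2 libraries came from medium with DPI (10 µM), PI (25 µM, pentamidine isethionate) or AEG (12.5 µM, AEG3482), 3 libraries each, and 3 untreated libraries were collected at ZT0. The deposited table listed 11437 genes, and 9006 of them had enough counts to be tested. No gene among the 9006 passed adjustment for multiple tests between TYR and DMSO. The values below therefore give, by gene and by pathway, the size of difference for which the libraries leave room.

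Tyrphostins are small synthetic inhibitors of protein tyrosine kinases, and AG879 is used in mammalian cells against receptor tyrosine kinases of the nerve growth factor and ErbB2 kind. Plants sense many external signals through receptor-like kinases that act mainly on serine and threonine. By its title, the series concerns sugar signalling at dawn, the time of day when photosynthesis resumes, sugars begin to accumulate, and the circadian clock turns from its night to its morning genes. Sugar supply represses genes for the breakdown of amino acids and other reserves and induces genes for growth and storage.

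Estimated counts over the listed genes summed to between 3156987 and 3249696 per library in the TYR and DMSO groups, and between 8451 and 8597 genes reached 10 counts. Levels are given as CPM, each count scaled to the sum over the listed genes, and a floor of 3 counts lay between 0.923 and 0.950 CPM, which covers counting error only. The labels do not say whether replicates came from separate cultures, so p-values measure the spread between these samples, which may be technical. Carbonic anhydrase CA1, the only one of 6 leaf markers that was tested, was at 5219 to 7891 CPM with DMSO and 6112 to 7370 CPM with TYR. The summed level of the 3 tested root markers of 8, led by the beta-glucosidase PYK10, was 2168 to 2902 CPM with DMSO and 1501 to 2895 CPM with TYR. Whole seedlings mix organs, so fewer cells of a type and less RNA per cell cannot be told apart in any value given here.

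A single library of each ZT2 group stood apart in FSD1, the iron superoxide dismutase of the chloroplast. FSD1 was at 1242, 0.956 and 1.20 CPM in DMSO replicates 1, 2 and 3. It was at 4.46, 0.937 and 961 CPM in TYR replicates 1, 2 and 3. The high library was replicate 1 with DMSO and replicate 3 with TYR, so each group held 1 high and 2 low libraries, and the groups overlapped. With DPI, PI and AEG the high library was also replicate 1, at 1076, 1675 and 1507 CPM, so TYR was the only ZT2 group in which it carried the number 3. Whether TYR replicates 1 and 3 are exchanged in the labels was not tested; an exchange would leave the group comparison as it is but alter every value that leaves out or blocks on a replicate number. Results that rest on these 2 libraries are given with and without them.

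The first question was which transcripts TYR moved away from the solvent level. With edgeR's quasi-likelihood test and Benjamini-Hochberg adjustment, 0 of 9006 genes (0%) reached an adjusted p under 0.05, and the smallest adjusted p was 0.997. DESeq2 and limma voom also called 0 genes. At an unadjusted p under 0.05 edgeR listed 351 genes (3.90%), 144 of them higher with TYR (1.60%) and 207 lower (2.30%), where an even spread of p-values would list 450.3. Values of the 3 TYR and 3 DMSO libraries did not overlap for 682 genes (7.57%), of which 320 were higher (3.55%) and 362 lower (4.02%) with TYR. With so few libraries, groups that do not differ also separate in some genes by order alone. A lack of overlap is therefore a description here and not a call.

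The intervals show how large a difference these libraries could hide. The 95% interval of the TYR to DMSO ratio lay inside 2-fold in either direction for 7209 genes (80.0%) and inside 1.5-fold for 4556 (50.6%). Precision followed the level of the gene. The interval was inside 2-fold for 17.3% of 1427 genes with an average log2 CPM under 3, for 83.4% of 2873 genes between 3 and 5, for 97.4% of 3235 genes between 5 and 7, and for 96.1% of 1471 genes over 7. The median absolute log2 fold change was 0.14, against a median interval half-width of 0.42. Of 122 genes with an absolute log2 fold change over 1, only 29 had an average log2 CPM of 3 or more, 7 higher and 22 lower with TYR. The fit was also run on simulated counts, with the changed genes drawn only from those with an average log2 CPM over 3. It called 77.5% of 200 genes changed 2-fold in TYR (8889 genes tested, 8 false calls). It called 98% of 200 changed 4-fold (8903 tested, 10 false calls) and 8% of 200 changed 1.5-fold (8886 tested, 0 false calls). At these levels changes near 1.5-fold were mostly not detectable with 3 libraries a side. Counts were drawn separately for each gene, without a split between libraries like that of FSD1, and genes of lower level were not covered. Means were taken over all 18 libraries. The share called also depends, through the adjustment, on 200 genes changing together by the same fold, and a change in fewer genes was not simulated.

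**Figure D1:**
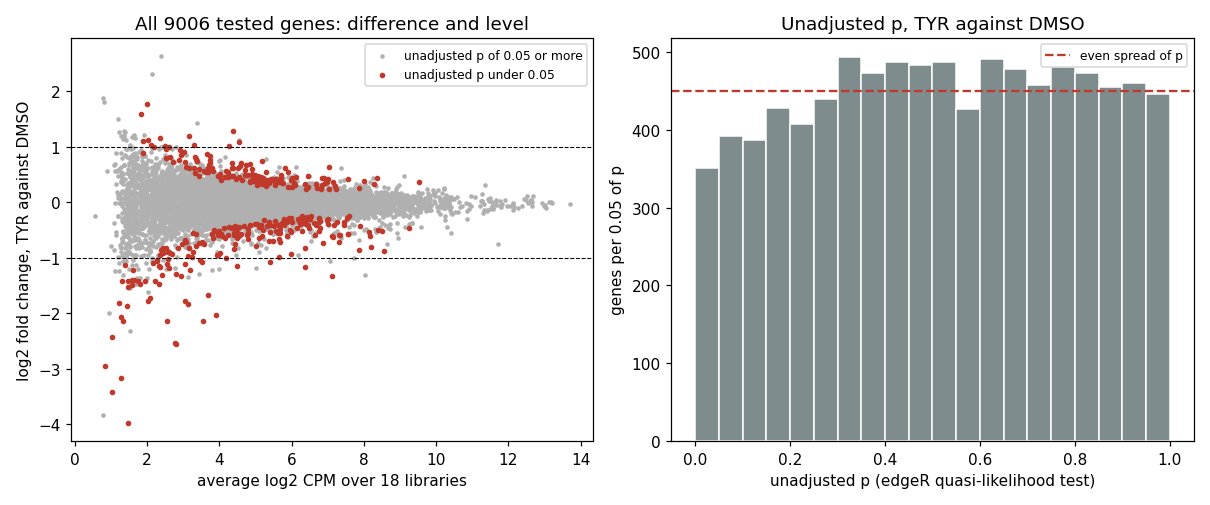
Left, log2 fold change of TYR against DMSO (vertical axis) by average log2 CPM over 18 libraries (horizontal axis) for 9006 genes, with the 351 genes at an unadjusted p under 0.05 in red and dashed lines at log2 values of -1 and 1. Right, number of genes per 0.05 of unadjusted p, with a dashed line at the 450.3 of an even spread; the lowest bar holds 351 genes and lies under that line.

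Libraries of the 2 groups were as far from each other as from their own replicates. The root mean square difference of log2 CPM between a pair of DMSO libraries was 0.533 to 0.579, and between a pair of TYR libraries 0.464 to 0.572. Pairs of 1 TYR and 1 DMSO library differed by 0.458 to 0.582. The nearest pair of the 6 libraries was DMSO replicate 3 with TYR replicate 2, at 0.458.

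HSP90.1 and AT1G07400 had the smallest unadjusted p of all genes tested, both with lower values in TYR. HSP90.1 (AT5G52640), a heat-inducible cytosolic HSP90, was at 63.5, 167 and 105 CPM in the DMSO libraries and at 30.4, 64.6 and 54.0 CPM in the TYR libraries. All TYR libraries were lower than DMSO replicates 2 and 3, but TYR replicate 2 overlapped DMSO replicate 1. The log2 fold change was -1.17 (SE 0.29, 95% interval -1.78 to -0.56; edgeR, adjusted p = 0.997). AT1G07400, a small heat shock protein of the HSP20 family, was at 9.39, 14.0 and 22.0 CPM with DMSO and at 4.46, 2.19 and 3.48 CPM with TYR. The groups did not overlap, and the log2 fold change was -2.15 (SE 0.54, interval -3.27 to -1.03; edgeR, adjusted p = 0.997). These TYR values rest on 15, 7 and 11 counts.

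AT1G07400 and the other 9 named genes that were lower with TYR without overlap are members of no gene list used here. ASP3 (AT5G11520), an aspartate aminotransferase that moves amino groups between glutamate and aspartate, was at 146, 158 and 146 CPM with DMSO and at 99.4, 109 and 129 CPM with TYR (log2 fold change -0.41, SE 0.11; edgeR, adjusted p = 0.997). PANK2 (AT4G32180), a pantothenate kinase at the start of coenzyme A synthesis, was at 108, 113 and 102 CPM with DMSO and at 83.0, 79.6 and 82.2 CPM with TYR. Each of these genes had a tight solvent level and lower values in all TYR libraries. The differences of BBD1 (a bifunctional nuclease of basal defence, log2 fold change -0.62), PP2-A5 (a phloem lectin, -1.16), MC3 (a metacaspase, a cysteine protease, -0.52) and AT5G55180 (a family 17 glycosyl hydrolase, -0.59) were of the same direction. AT3G47550 (a RING/FYVE/PHD zinc finger protein, -0.59), AT5G28460 (a pentatricopeptide repeat protein, -0.57) and AT1G55980 (an oxidoreductase, -2.03) complete the 10 lower genes taken by p. Part of the counts of AT5G28460 and AT1G55980 were not whole, so these 2 may share reads with another gene.

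The 10 named genes that were higher with TYR had small to moderate differences. MGD2 (AT5G20410), a synthase of the galactolipid monogalactosyldiacylglycerol that is best known from phosphate starvation, was at 6.26, 5.10 and 4.21 CPM with DMSO and at 16.4, 11.2 and 7.90 CPM with TYR. TYR replicate 1 was highest and the groups did not overlap (log2 fold change 1.19, SE 0.32, interval 0.51 to 1.86; edgeR, adjusted p = 0.997). TMT2 (AT4G35300), which carries monosaccharides into the vacuole, was at 94.2, 103 and 106 CPM with DMSO and at 163, 119 and 128 CPM with TYR (log2 fold change 0.43, SE 0.13; edgeR, adjusted p = 0.997). EXPB1 (AT2G20750), a beta-expansin that loosens cell walls, was at 15.3, 15.3 and 13.2 CPM with DMSO and at 39.9, 25.9 and 23.1 CPM with TYR, a log2 fold change of 1.02. TYR replicate 1 was again the highest library for TMT2 and EXPB1. PFA-DSP4, an atypical dual-specificity phosphatase, had a log2 fold change of 1.03. The remaining 6 genes, the RING/U-box gene AT4G13100, AT3G27906, AT2G32415, AT3G61100, AT5G14480 and the Per1-like AT5G62130, had log2 fold changes of 0.44 to 0.77. With any single library or replicate number left out, log2 fold changes lay between 0.24 and 1.41 for the 10 higher genes. They lay between -2.65 and -0.33 for the 10 lower genes, and none passed adjustment (edgeR). Both sets were chosen for groups without overlap in these same libraries. Their direction was therefore set by that choice, and the ranges describe size only.

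**Figure D2:**
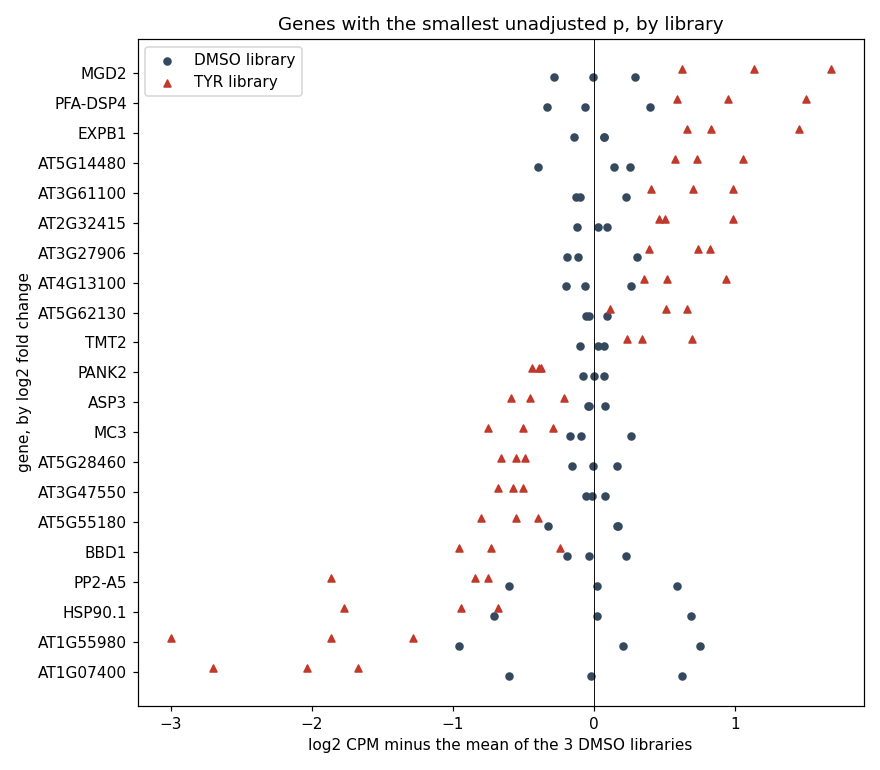
Log2 CPM minus the mean of the 3 DMSO libraries (horizontal axis) in each DMSO library (circles) and TYR library (triangles) for 21 genes: the 10 higher and 10 lower genes with the smallest unadjusted p among those whose groups did not overlap, and HSP90.1. HSP90.1 is the gene in which a TYR library overlaps a DMSO library, and AT1G07400 has the largest difference, -2.15.

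A comparison in which the solvent libraries do not enter set TYR against the mean of the DPI, PI and AEG groups; it shares the TYR libraries with the comparison above. edgeR called 0 genes (0%; smallest adjusted p 0.524), with 648 genes at an unadjusted p under 0.05 (7.20%), and limma voom called 0. DESeq2 called 5 genes (0.0555%), all lower with TYR. They were AT1G07400 (log2 fold change -2.19, DESeq2 adjusted p = 0.00670), CAD5 (AT4G34230, a cinnamyl alcohol dehydrogenase of lignin synthesis, -0.93, adjusted p = 0.00670), ASP3 (-0.44, adjusted p = 0.00670), HSP90.1 (-1.11, adjusted p = 0.0153) and AT5G55180 (-0.67, adjusted p = 0.0179). ASP3 lay between 146 and 162 CPM in the 9 libraries of the other chemicals, above its highest TYR value of 129 CPM. HSP90.1 lay between 68.9 and 135 CPM in these 9 libraries, and AT1G07400 between 7.29 and 30.2 CPM, in both cases above every TYR library. CAD5 was at 125, 110 and 157 CPM with TYR, at 147, 286 and 153 CPM with DMSO and at 191 to 348 CPM with the other chemicals, so it overlapped the solvent but not the other chemicals.

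**Figure D3:**
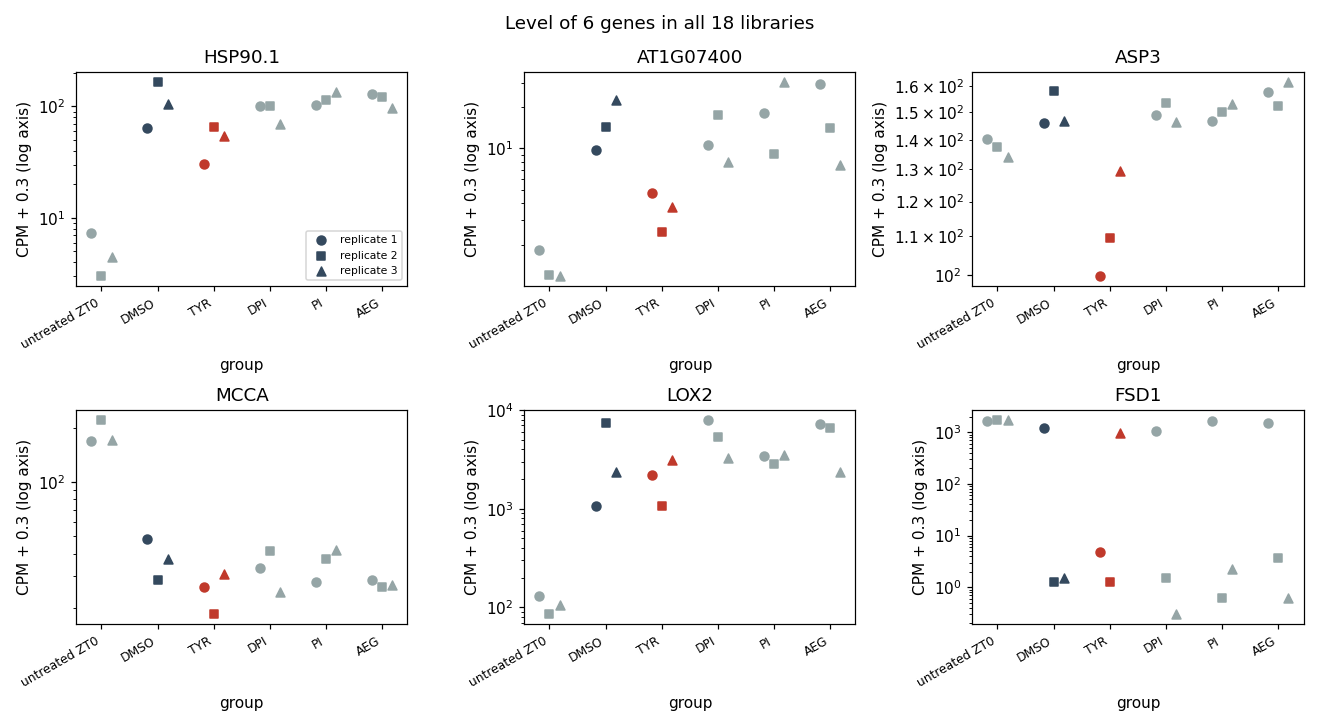
CPM plus 0.3 on a log axis (vertical) in all 18 libraries by group (horizontal) for HSP90.1, AT1G07400, ASP3, MCCA, LOX2 and FSD1, with DMSO dark, TYR red, other groups grey and the marker shape giving the replicate number. The TYR libraries lie below all 12 other ZT2 libraries for AT1G07400 and ASP3, while LOX2 and FSD1 spread within groups.

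Counted over all genes, 23 (0.255%) had every TYR library above all 12 other ZT2 libraries and 18 (0.200%) had every TYR library below them. The same counts were 8 and 5 for DMSO, 13 and 16 for DPI, 18 and 22 for PI and 13 and 18 for AEG. The genes named next were chosen after their values were seen. On the low side were ASP3, AT1G07400, PANK2 and MAPKKK6, a kinase at the head of a mitogen-activated protein kinase cascade, which was at 23.5, 27.2 and 25.0 CPM with TYR and at 28.1 to 37.6 CPM in the other 12. The transcription factor gene BZIP25 was at 60.4, 69.9 and 79.0 CPM with TYR, against 80.4 to 99.6 CPM in the other 12. On the high side, BT1, a BTB and TAZ domain protein, was at 426, 388 and 390 CPM with TYR, against 261 to 386 CPM. The gaps between the TYR libraries and the nearest other library were small for BT1 and BZIP25, whose log2 fold changes against DMSO were 0.26 and -0.40.

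The change from ZT0 to ZT2 was then compared side by side in TYR and DMSO, which share the untreated libraries. TYR differed from untreated seedlings in 3367 genes (37.4%; edgeR, adjusted p under 0.05), 1812 higher and 1555 lower, and DMSO in 3204 (35.6%), 1766 higher and 1438 lower. Both lists held 2708 genes in the same direction, 80.4% of the TYR list and 84.5% of the DMSO list, and 0 genes in opposite directions. Light, time and transfer to new medium cannot be told apart in these values. Without replicate 2 of every group the counts were 1985 and 1709.

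Clock genes changed at dawn in both groups. Of 11 tested clock genes, 9 changed from untreated seedlings in each group (4 higher and 5 lower), against 35.6% of all genes in DMSO and 37.4% in TYR. Between TYR and DMSO 0 passed (edgeR; 0 at an unadjusted p under 0.05, against 3.90% of all genes), with a median log2 fold change of 0.02 (all genes, -0.00). LHY, a morning-phased repressor, was at 970, 810 and 925 CPM with DMSO and at 947, 919 and 747 CPM with TYR. It fell from a mean of 2518 CPM by log2 values of -1.48 and -1.53 in DMSO and TYR, and the interval of the TYR to DMSO ratio was -0.35 to 0.25. LNK1, a coactivator of evening genes, rose by 5.39 and 5.48 in DMSO and TYR, with an interval of -0.28 to 0.46 for the ratio. Part of the counts of LNK1 were not whole, so LNK1 may share reads with another gene. TOC1, an evening repressor, fell by log2 values of -1.51 and -1.41. Intervals lay inside 2-fold for 9 of the 11, near the 80.0% of all genes, the exceptions being FKF1, a blue-light receptor gene near the count floor, and JMJD5, a histone demethylase gene (log2 fold change 0.51, interval -0.23 to 1.24).

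**Figure D4:**
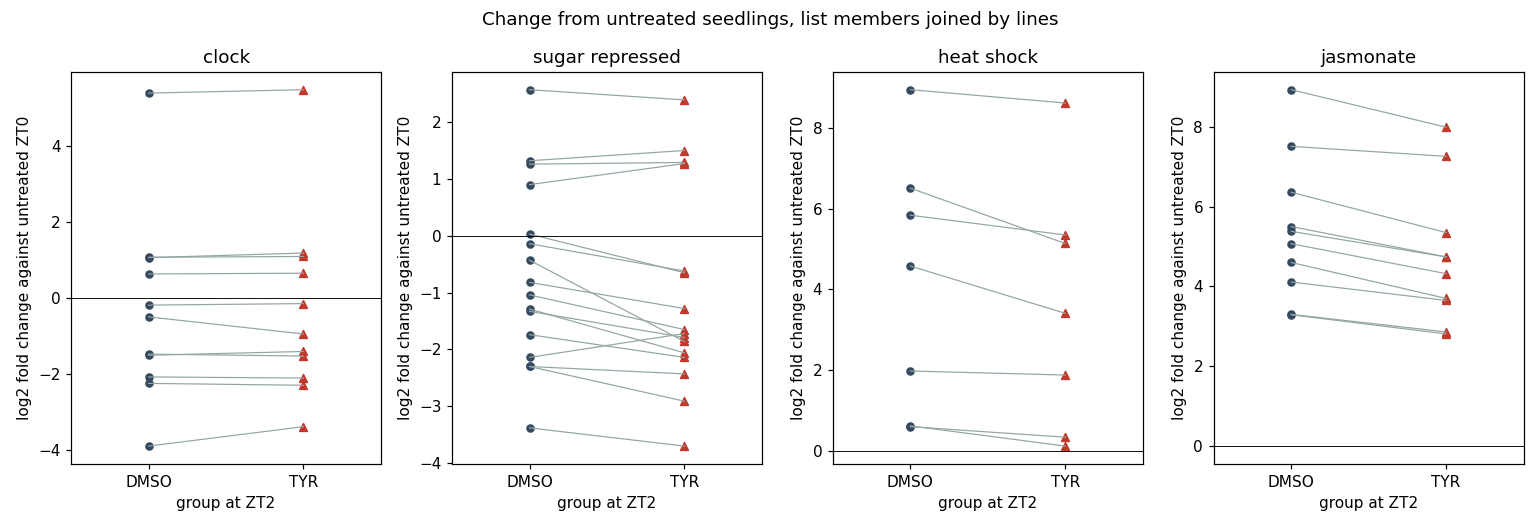
Log2 fold change against untreated ZT0 seedlings (vertical axis) in DMSO and in TYR (horizontal axis) for tested members of the clock, sugar repressed, heat shock and jasmonate lists, each gene joined by a line. The clock line of LNK1 runs from 5.39 to 5.48, and the 10 jasmonate lines all slope down.

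Sugar-repressed genes bear on the topic named in the series title. Of 16 tested members, 4 were higher and 12 lower with TYR (75.0% lower, against 50.1% of all genes), with a median log2 fold change of -0.42. None passed adjustment (edgeR), and 5 had an unadjusted p under 0.05, against 3.90% of all genes. Of these, MCCA, IVD, BCAT2 and DIN3, encode enzymes that break down branched-chain amino acids, and TPS9 is a trehalose-phosphate synthase-like protein. MCCA (AT1G03090), a subunit of methylcrotonyl-CoA carboxylase, was at 48.2, 28.4 and 37.0 CPM with DMSO and at 25.6, 18.1 and 30.7 CPM with TYR (log2 fold change -0.61, SE 0.23; edgeR, adjusted p = 0.997). DMSO replicate 1 was highest, and DMSO replicate 2 overlapped the TYR libraries. Part of the counts of MCCA were not whole, so MCCA may share reads with another gene. IVD (AT3G45300), isovaleryl-CoA dehydrogenase, was at 64.5, 67.6 and 71.3 CPM with DMSO and at 45.2, 50.9 and 50.9 CPM with TYR, without overlap (log2 fold change -0.47, SE 0.19). BCAT2, a branched-chain aminotransferase, was at 6.26, 3.19 and 5.72 CPM with DMSO and at 0.595, 1.87 and 3.16 CPM with TYR, a log2 fold change of -1.43, and its lowest value was under the count floor. DIN4, a subunit of the same dehydrogenase complex as DIN3, differed by -0.13 against -0.61 for DIN3. Members ran from -1.43 to 0.42, and KMD4, the member of highest level, was higher with TYR by 0.37 (interval -0.05 to 0.8). Values did not overlap for 1 member that was higher and 2 that were lower, against 3.55% and 4.02% of all genes.

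DMSO replicate 1 was the highest of the 6 libraries for 8 of the 16 sugar-repressed genes, against 16.8% of all genes. The median of the list stayed below 0 when single libraries or replicate numbers were left out (-0.58 to -0.20) and was -0.56 without DMSO replicate 1 and TYR replicate 3. Against the other chemicals the median was -0.18. Against untreated seedlings it was -0.93 in DMSO and -1.68 in TYR, but the called members went both ways. In DMSO 9 fell and 4 rose, and in TYR 10 fell and 4 rose, against 35.6% and 37.4% of all genes called. The members that rose in DMSO were DIN9, KMD4, BZIP2 and BZIP11, by 2.57, 0.90, 1.26 and 1.32 on the log2 scale. DYL1, a dormancy-associated gene repressed by sugar, fell from a mean of 158 CPM by log2 values of -3.38 in DMSO and -3.70 in TYR, and its levels at ZT2 overlapped.

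Sugar-induced genes were divided. Of 6 tested, 2 were higher and 4 lower with TYR (66.7% lower, against 50.1% of all genes), with a median of -0.15. None passed adjustment (edgeR), and 2 had an unadjusted p under 0.05, against 3.90% of all genes. The median was 0.02 without TYR replicate 1 and -0.34 without DMSO replicate 1 and TYR replicate 3. CWINV1 (AT3G13790), the cell wall invertase that splits sucrose outside the cell, was at 169, 223 and 193 CPM with DMSO and at 89.0, 138 and 163 CPM with TYR. The groups did not overlap (log2 fold change -0.58, SE 0.20; edgeR, adjusted p = 0.997). CWINV1 rose from untreated seedlings in DMSO (0.97; edgeR, adjusted p = 0.000911), and its value in TYR was 0.38 (adjusted p = 0.147). TPS5, a trehalose-phosphate synthase-like protein, was higher with TYR at a log2 fold change of 0.44, with DMSO replicate 2 inside the TYR range. Chalcone synthase CHS and the nitrate reductase NIA2 differed by 0.12 and -0.09.

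All tested members of the heat shock list were lower with TYR, 7 of 7, against 50.1% of all genes, with a median of -0.49. Only HSP90.1 of the 7 had an unadjusted p under 0.05, against 3.90% of all genes, and 0 passed adjustment (edgeR). HSP70 (AT3G12580), a cytosolic chaperone, was at 217, 592 and 289 CPM with DMSO and at 227, 259 and 297 CPM with TYR. DMSO replicate 2 was far above the rest and the other 5 libraries overlapped (log2 fold change -0.49, SE 0.26, interval -1.03 to 0.05). Without DMSO replicate 2 the log2 fold change of HSP70 was 0.0456 and the list's median was -0.21. In the 9 libraries of the other chemicals HSP70 lay between 341 and 563 CPM, above every TYR library. Against the mean of these groups its log2 fold change was -0.67 (SE 0.22; edgeR, adjusted p = 0.688), and the list's median was also -0.67. A wider set of 38 tested genes had the words heat shock in the RefSeq product name and was chosen after values were seen. Of the 38, 10 were higher and 28 lower than with DMSO (73.7% lower, against 50.1% of all genes), with a median of -0.11. In this set 1 had an unadjusted p under 0.05, against 3.90% of all genes. AT1G07400 belongs to neither the list nor the wider set. From untreated seedlings 5 of the 7 list members changed in DMSO and 4 in TYR (edgeR), all higher, against 35.6% and 37.4% of all genes. HSP70 rose by 5.84 in DMSO and 5.35 in TYR, and HSP90.1 by 4.58 and 3.41, on the log2 scale. HSFA2, the heat-inducible transcription factor, had 0 counts in untreated seedlings and was at 11.0, 22.9 and 23.8 CPM with DMSO and at 21.4, 17.8 and 6.64 CPM with TYR.

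Photosynthesis genes lay near the solvent level. Of 10 tested genes of the photosystems and of chlorophyll synthesis, 5 were higher and 5 lower, with a median of -0.00, and 9 of 10 intervals lay inside 2-fold, against 80.0% of all genes and 96.1% of genes with an average log2 CPM over 7, where all 10 lay. LHCA1, an antenna protein of photosystem I, was at 9767, 8597 and 8393 CPM with DMSO and at 8363, 9131 and 9148 CPM with TYR. Its ratio was -0.01 (interval -0.29 to 0.28), and it rose from untreated seedlings by 1.19 in each group. ELIP2, an early light-induced protein of the thylakoid, was the exception at 0.39 (interval -0.25 to 1.02), and it rose from untreated seedlings by 3.34 in DMSO and 3.72 in TYR.

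Light signalling genes had intervals inside 2-fold for 8 of 8 members, against 80.0% of all genes, with a median of -0.04. The share was 96.1% of genes with an average log2 CPM over 7, where the members PHYA and PIF5 lay. PIF4, a phytochrome-interacting transcription factor, was at 149, 168 and 200 CPM with DMSO and at 192, 168 and 164 CPM with TYR, and rose from untreated seedlings by 4.66 and 4.68. PHYA, the far-red photoreceptor phytochrome A, was at 138, 133 and 136 CPM with DMSO and at 83.9, 113 and 120 CPM with TYR. The groups did not overlap for PHYA (log2 fold change -0.36, SE 0.15; edgeR, adjusted p = 0.997). All 4 tested auxin genes were lower, by -0.30 to -0.05, against 50.1% of all genes lower. The 3 reference genes UBC9, GAPC1 and YLS8 differed by -0.07 to -0.01.

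Jasmonate genes were lower with TYR in 10 of 10 members, against 50.1% of all genes. Their median was -0.70, but this direction against the solvent rested on DMSO replicate 2. LOX2, the lipoxygenase at the start of jasmonate synthesis, was at 1058, 7397 and 2370 CPM with DMSO and at 2208, 1080 and 3162 CPM with TYR. VSP2, a vegetative storage protein induced by jasmonate, was at 34.7, 492 and 175 CPM with DMSO and at 139, 50.6 and 159 CPM with TYR. DMSO replicate 2 was the highest of the 6 libraries for 10 of 10 members and DMSO replicate 1 the lowest for 8, and a TYR library was the lowest for the other 2. The TYR libraries therefore lay inside the solvent range for 8 of 10 members, TAT3 being below it in TYR replicates 1 and 2. None had an unadjusted p under 0.05, against 3.90% of all genes. The median turned to 0.30 without DMSO replicate 2 and to 0.55 without replicate 2 of every group, and was -1.48 without DMSO replicate 1 and TYR replicate 3. Against the mean of the DPI, PI and AEG groups, where DMSO does not enter, the list's median was -1.01. In that comparison 0 genes were called (edgeR). All 10 rose from untreated seedlings in both groups (edgeR, adjusted p under 0.05), with medians of 5.23 in DMSO and 4.53 in TYR. Of all genes, 35.6% were called in DMSO and 37.4% in TYR, in either direction.

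Genes of detoxification and of the touch and wound response were lower with TYR in 5 of 6 and 5 of 6 members (83.3%, against 50.1% of all genes), with medians of -0.70 and -0.44. None passed adjustment (edgeR), and 1 and 0 had an unadjusted p under 0.05, against 3.90% of all genes. The detoxification median was -0.32 without DMSO replicate 3 and -0.44 without TYR replicate 1. The touch and wound median was -0.23 without TYR replicate 1 and -0.86 without replicate 2 of every group. GSTF7, a glutathione transferase, was at 205, 477 and 240 CPM with DMSO and at 115, 144 and 250 CPM with TYR (log2 fold change -0.86, SE 0.29; edgeR, adjusted p = 0.997). DMSO replicate 2 was the highest, and TYR replicate 3 overlapped the solvent. ERF6, an ethylene response factor, did not overlap between groups at a log2 fold change of -1.35, with an interval of -3.18 to 0.49 and levels of only 1.49 to 4.42 CPM with TYR. TCH4, a xyloglucan-modifying enzyme induced by touch, was the member that was higher, at 0.21, and CYP81D11, a cytochrome P450, the detoxification gene that was higher, at 0.12.

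**Figure D5:**
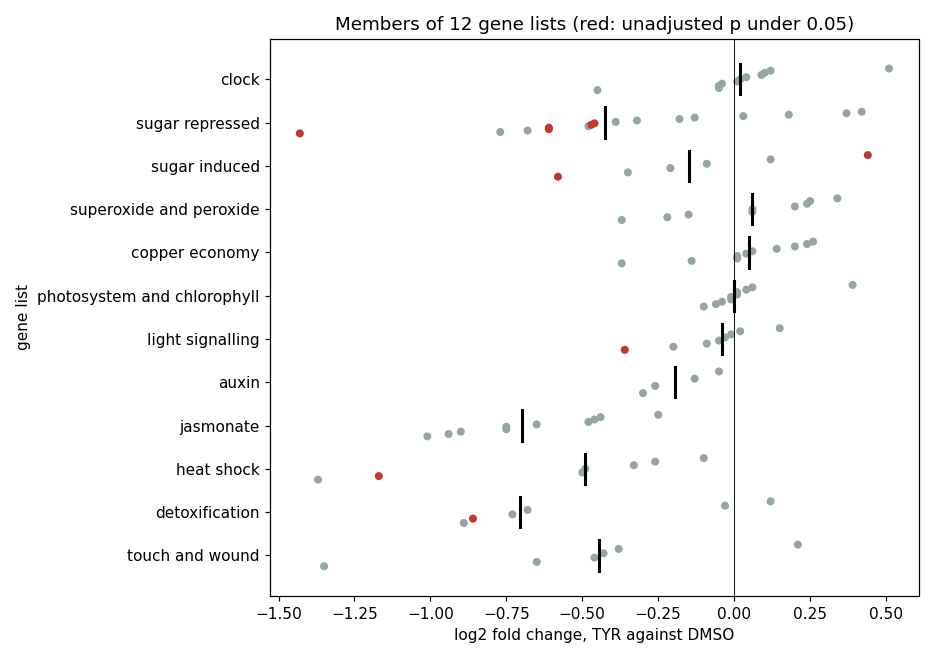
Log2 fold change of TYR against DMSO (horizontal axis) for each tested member of 12 gene lists (vertical axis), with a black bar at the list's median and red points for an unadjusted p under 0.05. Medians run from -0.70 for jasmonate and detoxification to 0.06 for superoxide and peroxide, and no point passed adjustment.

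Some genes for superoxide, peroxide and copper handling varied widely between libraries of the same group. Of 9 tested genes of superoxide and peroxide metabolism, 6 were higher and 3 lower (median 0.06). Of 10 copper genes 8 were higher and 2 lower (median 0.05). Of all genes, 50.1% were lower. In either list 0 had an unadjusted p under 0.05 (edgeR), against 3.90% of all genes, a share at which lists this short may hold none. CSD2, the chloroplast copper/zinc superoxide dismutase, was at 387, 1696 and 1808 CPM with DMSO and at 1858, 2007 and 727 CPM with TYR. In the untreated ZT0 libraries CSD2 was at 334, 317 and 281 CPM. CSD1, its cytosolic counterpart, was at 216, 816 and 804 CPM with DMSO and at 749, 770 and 390 CPM with TYR. Both genes were lowest in the libraries with high FSD1, DMSO replicate 1 and TYR replicate 3. The metal-nicotianamine transporter YSL2 was highest in these libraries, at 76.1 and 93.8 CPM, against 2.71 to 8.29 CPM in the other 4. Other members did not show this split. FSD3, another iron superoxide dismutase, was at 72.0, 59.9 and 49.9 CPM with DMSO and at 85.7, 73.7 and 70.1 CPM with TYR (log2 fold change 0.34, interval -0.06 to 0.73). The copper transporter COPT1 was at 107, 88.6 and 104 CPM with DMSO and at 96.4, 86.8 and 89.4 CPM with TYR. The NADPH oxidase RBOHD, a source of signalling superoxide, was at 128, 149 and 125 CPM with DMSO and at 125, 120 and 174 CPM with TYR (log2 fold change 0.06, interval -0.33 to 0.44).

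The widest ranges among the TYR libraries, where the average log2 CPM was 3 or more, were those of FSD1, AT1G55673, IRT1, AT1G24881 and TAT3. The log2 fold change of FSD1 between TYR and DMSO was -0.37 with an SE of 2.37, and its interval ran from -5.31 to 4.58. IRT1, the main iron uptake transporter of the root, was at 3.13, 4.14 and 8.42 CPM with DMSO and at 9.23, 0 and 33.8 CPM with TYR. AT1G55673, an uncharacterised gene with counts that were partly not whole, was at 564, 574 and 1.20 CPM with DMSO and at 2.08, 10.6 and 447 CPM with TYR. TAT3, a tyrosine aminotransferase induced by jasmonate, was at 5.95, 164 and 35.5 CPM with DMSO and at 3.57, 4.37 and 98.9 CPM with TYR. AT1G24881, an F-box gene with counts that were partly not whole, was at 25.7, 0 and 3.31 CPM with DMSO and at 26.5, 0 and 0 CPM with TYR. These genes were taken for their spread inside the TYR group, so that spread is a description.

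The number of genes at an unadjusted p under 0.05 rested on TYR replicate 3. It was 778 without TYR replicate 3, 1011 without replicate 3 of every group, 222 without TYR replicate 1 and 682 without DMSO replicate 1 and TYR replicate 3, against 351 with all libraries. The edgeR count at an adjusted p under 0.05 was 0 in each of these fits, and the smallest adjusted p was 0.0540, without replicate 3. With the log2 CPM of FSD1 as a covariate, added after the data were seen, 359 genes had an unadjusted p under 0.05. Without the same pair of libraries the log2 fold changes of HSP90.1 and AT1G07400 were -1.52 and -2.41.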

How the data were processed

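Poly(A) RNA of 18 whole-seedling samples was sequenced on an Illumina HiSeq, per the labels' protocols. The authors deposited 1 table with FPKM and TPM values of all 18 samples, per the file headers. The same table held the authors' estimated counts, as deposited, and only these were used. HISAT2 2.2.1, RSEM 1.2.22 and the build TAIR10 are named in the submitters' processing notes without their roles. Of 29431 deposited lines, 11981 carried a gene name; 544 repeats with equal values were dropped, leaving 11437 identifiers, all matched to RefSeq TAIR10.1 and 41.5% of its 27562 protein-coding genes. CPM therefore refers to the listed genes, and full library depth is not given in the sources used here. For 144 genes the locus name and the gene identifier disagreed, and the identifier was used. Counts that were not whole (3.59% of values, tolerance 1e-06) were rounded.

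Groups came from the labels. edgeR 4.0.16 (R 4.3.3) fitted 1 coefficient per group to all 18 libraries after TMM (factors 0.942 to 1.07) and filterByExpr, with 12 residual degrees of freedom, and two-sided quasi-likelihood tests were adjusted by Benjamini-Hochberg over 9006 genes (threshold 0.05). Intervals (95%) used the standard error implied by the F statistic, and 2 was the prior count behind log2 CPM. The fit was tested on simulated data with 200 changed genes of average log2 CPM over 3. Alternatives used DESeq2 1.42.0, limma 3.58.1 (voom), other scalings and filters, TYR and DMSO alone, a replicate block, libraries left out and an adjusted p under 0.10; the FSD1 covariate and the fit without DMSO replicate 1 and TYR replicate 3 were chosen after seeing the data. Named genes were the 10 higher and 10 lower with the smallest unadjusted p among genes of average log2 CPM of at least 3 whose libraries did not overlap, the 2 smallest p and the highest level of each list, the 5 widest TYR ranges, and FSD1 and LOX2; other list members and genes set apart from the remaining ZT2 libraries are described beyond that rule. The comparison, the members and the lists were chosen with earlier results of these data known. List genes outside the table or under the filter were not analysed here.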

Additional observations from a re-analysis of the deposited data

How the results depend on the processing

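Of 1548 alternative values, 70 log2 fold changes of single genes changed sign and 14 counts or list medians moved by more than the limit set for them (1.5 times for a count, 1 SD between replicates for a median); the cause was not tested. No alternative gave a call for TYR against DMSO, including an adjusted p under 0.10, except that 8 genes had an adjusted p under 0.10 without replicate 3. Genes at an unadjusted p under 0.05 numbered 227 with TYR and DMSO alone, 682 without DMSO replicate 1 and TYR replicate 3, and 222 to 1011 with single libraries or replicate numbers left out. DESeq2 called 5 genes against the other chemicals where edgeR called 0. Calls against untreated seedlings ranged over left-out replicates from 1985 to 2775 (TYR) and 1709 to 2583 (DMSO). Same-numbered deviations of TYR and DMSO libraries from their group means correlated at -0.156, -0.220 and -0.311 (mean -0.229, against 0.1155 for other numbers). Deviations from a mean of 3 libraries depend on each other, so these 3 pairs cannot settle whether the replicate numbers pair the samples. With the replicate block 0 genes were called and 345 had an unadjusted p under 0.05, so the block changed no call. The list median changed sign under at least 1 alternative for 10 of 15 lists (29 of 285 values). Ranges over left-out libraries were -0.0772 to 0.16 (clock), -1.27 to 0.55 (jasmonate), -0.0857 to 0.0426 (light signalling), -0.28 to 0.0183 (sugar induced) and -0.0576 to 0.13 (copper). They were -0.0682 to 0.0975 (photosystem), -0.52 to 0.18 (root), -0.17 to 0.27 (leaf), -0.00261 to 0.21 (superoxide) and -0.0664 to 0.0334 (reference genes). With the replicate block the superoxide median was 0.25. The medians of the sugar repressed, heat shock, detoxification, touch and wound, and auxin lists kept their sign. Log2 fold changes of single genes that changed sign ranged from -0.94 to 0.70 (FKF1), -0.25 to 0.38 (LNK2), -0.23 to 0.0838 (NIA2), -0.36 to 0.88 (CSD2), -0.13 to 0.28 (SPL7), -1.67 to 0.51 (VSP2), -1.54 to 0.47 (VSP1), -1.37 to 0.65 (LOX2), -4.41 to 1.29 (TAT3), -0.29 to 0.0551 (LHCB2.1), -0.0613 to 0.10 (PSBO1), -0.75 to 0.0517 (HSP70), -0.14 to 0.39 (CYP81D11), -0.31 to 0.11 (IAA2), -0.12 to 0.00209 (IAA3), -0.32 to 0.11 (GAPC1), -0.0838 to 0.0306 (YLS8), -0.17 to 0.27 (CA1), -0.52 to 0.0344 (PYK10), -0.38 to 1.50 (TIP2;3), -7.81 to 8.75 (FSD1), -0.17 to 2.02 (IRT1) and -7.96 to 2.38 (AT1G24881). Without DMSO replicate 1 and TYR replicate 3 the value was -0.39 for CYP81D11, 0.0154 for IAA3, 0.00396 for YLS8, -0.65 for TIP2;3, 1.31 for FSD1, -0.43 for IRT1 and 2.95 for AT1G24881. Under limma voom it was -0.48 for TIP2;3, 0.43 for FSD1 and -0.43 for IRT1, with the replicate block 5.33 for FSD1, and with the FSD1 covariate 0.0769 for FSD1 and 0.62 for AT1G24881. The smallest adjusted p of a named gene over these alternatives was 0.163. Depth limits genes with an average log2 CPM under 3, of which 17.3% had an interval inside 2-fold, and with 3 libraries a side changes near 1.5-fold were seldom called on simulated counts.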
